A study of Mus musculus with 12 samples.

Results

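Dichloroacetate was given to mice before and together with cisplatin, and the gene expression of their kidneys was compared with that of mice given cisplatin alone. The comparison therefore measures what dichloroacetate changed in the injured kidney. It uses 6 of the 12 libraries of the series, 3 per group, selected by their treatment labels, and it covers 20370 genes with enough counts to be tested out of 28991 in the count table. All mice were male BALB/c animals, an inbred laboratory strain, 8 weeks old, and the labels name no engineered allele. The cisplatin mice received saline for 5 days and then 1 injection of cisplatin at 20 mg/kg. The combination mice received dichloroacetate at 250 mg/kg daily for 5 days, and then the same dose of cisplatin together with dichloroacetate, whose amount on that day is not stated separately. Kidneys of both groups were taken 24 h after cisplatin. In the other two groups, mice received saline or dichloroacetate at 250 mg/kg daily for 6 days and no cisplatin, and they are used here as the level without injury. RNA came from whole kidney, with 1 library per replicate, and the series' design text calls the replicates biological.

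Cisplatin is a platinum drug that crosslinks DNA, and in the kidney it enters and injures mainly the cells of the proximal tubule, the segment that recovers most of the filtered glucose, amino acids, phosphate and bicarbonate. These cells depend on mitochondrial oxidation of fatty acids, lactate and ketone bodies, and after injury they lose transporters and oxidative enzymes while they switch on p53 targets, immediate early factors and NF-kB-driven cytokines. Dichloroacetate inhibits the pyruvate dehydrogenase kinases (Pdk1 to Pdk4), which phosphorylate and so inactivate the pyruvate dehydrogenase complex, the gate through which pyruvate enters the citric acid cycle. Dichloroacetate is itself broken down by glutathione transferase zeta, the product of Gstz1. The title of the series concerns protection of the kidney from cisplatin toxicity by dichloroacetate.

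The 6 libraries held between 29505929 and 35925471 counts. On the first principal component of the 6 libraries (55.4% of the variance) the combination libraries lay between 28.8 and 29.8 and the cisplatin libraries between -37.9 and -16.8, the last being cisplatin replicate 3. The second component (14.5%) set combination replicate 3 (29.7) apart from combination replicate 2 (-20.4). The TMM scaling factors were higher in the cisplatin libraries (1.114 to 1.151) than in the combination libraries (1.02 to 1.05), so the scaling itself differed between the groups compared, and the split under plain library totals is given beside the main one. Levels below are CPM (counts per library total after TMM adjustment), fold changes are log2 of combination over cisplatin, and a gene is called, or said to have risen or fallen, at an adjusted p below 0.05 by edgeR's quasi-likelihood test with Benjamini-Hochberg adjustment over all 20370 genes.

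Of the genes tested, 6441 (31.6%) were called: 3688 (18.1%) rose and 2753 (13.5%) fell with dichloroacetate in cisplatin-treated mice. Most differences were small. At a fold change of at least 1 on the log2 scale, 296 genes (1.45%) rose and 313 (1.54%) fell, and at 2 or more on that scale 17 rose and 48 fell. The 3 values of a group lay wholly above those of the other group for 5128 genes (25.2%) higher and 4407 genes (21.6%) lower in the combination mice, 46.8% in all. With library totals in place of TMM, 2317 genes rose and 5134 fell, and the median over all genes moved from 0.01 to -0.11. Under both scalings 2317 genes rose and 2753 fell, and no gene was called in opposite directions. The split between risers and fallers therefore rests on the scaling, and list counts under library totals are given below for most lists whose counts move by more than 1.5 times. Of 618 called genes of the lists or the naming rule, 111 lost their call under library totals, and all 111 were higher with TMM. Counts of list members that rose and fell are to be read against the 18.1% and 13.5% of all genes.

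**Figure D1:**
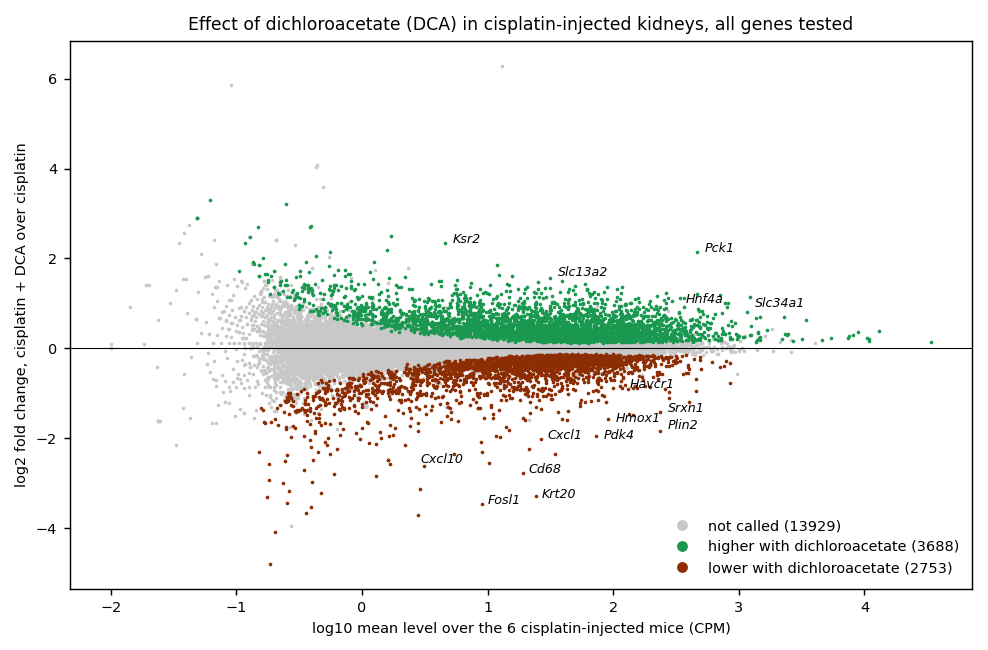
Each point is 1 of the 20370 tested genes, with the log10 of its mean CPM over the 6 libraries on the x axis and the log2 fold change of combination over cisplatin on the y axis, and called genes are coloured. The 3688 genes that rose and the 2753 that fell both centre on small changes, and Krt20, Fosl1 and Cd68 lie lowest among the genes labelled.

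Genes of the early response to injury were among the largest falls, and for 4 genes that fell the promoter shows where the motifs of the factors of that response lie. The 4 were picked as examples and only windows that hold a match were printed, so they do not stand for all genes that fell. The shares of windows with a match are given below. AP-1 is the dimer of Fos and Jun family proteins, NF-kB is the dimer of Rel family proteins, and NRF2 drives antioxidant genes through the antioxidant response element. The stretches printed run 5′ to 3′ on the gene's own strand, from RefSeq on GRCm38.p6, with capitals marking AP-1 (TGANTCA), NF-kB (GGG, any 2 bases, then TTTCC) or antioxidant element (TGACNNNGC) matches found on either strand in the 250 bases before the transcription start.
Srxn1, chr2:152105402-152105505 (+): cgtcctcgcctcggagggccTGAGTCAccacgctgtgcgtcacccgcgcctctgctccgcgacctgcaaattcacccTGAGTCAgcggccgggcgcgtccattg
Sprr1a, chr3:92485971-92486049 (-): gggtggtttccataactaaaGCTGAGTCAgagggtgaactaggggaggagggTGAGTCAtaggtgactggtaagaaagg
Cxcl1, chr5:90891136-90891203 (+): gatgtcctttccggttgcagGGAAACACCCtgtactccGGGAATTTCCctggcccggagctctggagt
Cxcl10, chr5:92348937-92348985 (-): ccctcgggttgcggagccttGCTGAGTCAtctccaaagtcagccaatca
Srxn1, which encodes the enzyme that repairs hyperoxidised peroxiredoxins, had AP-1 matches starting at -102 and -45. Sprr1a, a cornified envelope protein gene, had them at -146 and -116, and Cxcl10, an interferon-inducible chemokine, at -74. In both of these genes an antioxidant element match on the other strand, at -148 and -76, overlapped the AP-1 match, and the capitals cover both. Cxcl1, a chemokine that draws neutrophils, had 2 NF-kB matches at -89 and -71. An AP-1 match was present in 6.75% of all promoter windows of that length (32817 windows of 26994 genes), in 4.88% of windows of tested genes, in 13.8% of windows of genes that fell by at least 1 on the log2 scale (254 windows of 204 genes) and in 8.22% of windows of genes that rose by as much (219 windows of 168 genes). For NF-kB these shares were 1.41%, 1.42%, 5.91% and 1.37%, and for the antioxidant element 10.2%, 11.5%, 13% and 11.4%. A match is a description of letters and not evidence of binding.

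The largest falls among genes of at least 5 CPM with non-overlapping groups combined cytoskeletal, early response, chemokine and lysosomal genes. Krt20, a keratin that appears in injured tubule cells, was at 39.6, 45.98 and 45.7 CPM in the cisplatin mice and 4.22, 4.10 and 5.12 CPM in the combination mice. All 3 combination values were far below the lowest cisplatin value, and the change was -3.29 (SE 0.19, adjusted p = 7.5e-07); in saline mice its mean was 0.121 CPM. Fosl1, an AP-1 subunit (mm10 chromosome 19, 5447547 to 5455946), was at 16.6, 17.9 and 14.9 CPM in the cisplatin mice and 1.53, 1.52 and 1.40 CPM in the combination mice, a change of -3.47 (SE 0.11, adjusted p = 1.9e-09). Its groups lay far apart, but the gene overlaps Ccdc85b and the kit kept no strand, so reads of the 2 cannot be told apart. Cd68, a lysosomal membrane protein best known from macrophages, was at 41.6, 32.7 and 25.02 CPM in the cisplatin mice and 4.16, 4.10 and 6.30 CPM in the combination mice, with no overlap and a change of -2.77 (SE 0.22, adjusted p = 3.2e-06). Cxcl10 was at 22.4, 20.1 and 10.4 CPM in the cisplatin mice and 2.92, 2.28 and 3.90 CPM in the combination mice. The change was -2.54 (SE 0.36, adjusted p = 0.00014) for this gene, whose annotated span overlaps Art3 and whose promoter stretch is shown above.

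Sprr1a fell by 2.34 (log2, SE 0.18, adjusted p = 3.1e-06), from 9.09 ± 1.22 to 1.79 ± 0.251 CPM (SD, n = 3). Atf3, a stress-induced transcription factor, fell by 2.09 (SE 0.28), from 14.3 ± 4.79 to 3.37 ± 0.983 CPM (SD, n = 3). Egr1, an immediate early zinc finger factor, changed from 57.9 ± 22.2 to 11.4 ± 0.560 CPM (SD, n = 3), and Sfn, the p53-inducible 14-3-3 sigma protein, from 15.1 ± 3.65 to 3.06 ± 0.302 CPM (SD, n = 3). Smpdl3b, a phosphodiesterase related to acid sphingomyelinase, fell by 2.24 (SE 0.16). None of these genes had overlapping groups. Olfr1442, an olfactory receptor gene, had the largest fitted fall among genes of at least 5 CPM (-3.71, SE 1.00, adjusted p = 0.012), and its value rested on 1 library. Its levels were 0.682, 0.773 and 14.1 CPM in the cisplatin mice and 0.292, 0.407 and 0.487 CPM in the combination mice. Without cisplatin replicate 3 the change was -0.86 on the log2 scale (adjusted p = 0.03). The falls with the smallest adjusted p, beside Krt20 and Fosl1, were Srxn1 (-1.42, SE 0.06, adjusted p = 4.8e-08), Ifrd1, an interferon-related transcriptional regulator (-1.39, SE 0.08, adjusted p = 7.5e-07), and Skil, a repressor of TGF-beta signalling (-0.73, SE 0.04, adjusted p = 7.5e-07).

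The largest rises by the same rule were led by Ksr2, a scaffold of the RAF and MEK kinases, at 1.31, 1.07 and 2.08 CPM in the cisplatin mice and 8.42, 6.71 and 7.74 CPM in the combination mice. Its groups were separate, with a change of 2.34 (SE 0.20, adjusted p = 4.6e-06). Pck1, the cytosolic phosphoenolpyruvate carboxykinase that commits carbon to glucose synthesis (mm10 chromosome 2, 173153048 to 173159273), was at 137, 156 and 219 CPM in the cisplatin mice and 743, 641 and 891 CPM in the combination mice. The change was 2.15 (SE 0.20, adjusted p = 8.5e-06), and every combination value was above every cisplatin value, while the saline mean was 1351 CPM. Slc13a2, the citrate and dicarboxylate carrier of the brush border, was at 15.6, 14.7 and 17.6 CPM in the cisplatin mice and 49.6, 42.6 and 49.1 CPM in the combination mice, a change of 1.56 (SE 0.10, adjusted p = 9.4e-07) with no overlap. It overlaps the antisense gene Slc13a2os. Ldlrad3, a receptor of the LDL receptor family, rose from 5.12 ± 0.925 to 18.6 ± 0.857 CPM (SD, n = 3), a change of 1.86 (SE 0.10). Thrb, a thyroid hormone receptor, rose from 5.92 ± 2.05 to 18.6 ± 0.306 CPM (SD, n = 3), and Snx29, a sorting nexin, from 7.61 ± 2.09 to 23.6 ± 0.153 CPM (SD, n = 3). Adk, the adenosine kinase, rose by 1.49 (SE 0.12), Gna14, a G protein subunit, by 1.52 (SE 0.12), Cit, the citron kinase, by 1.49 (SE 0.20), and Gfra1, a GDNF receptor, by 1.49 (SE 0.15).

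The rises with the smallest adjusted p, beside Slc13a2 and Ldlrad3, were Sfxn5, a mitochondrial sideroflexin, Nlrp6, an NLR family sensor, and Dennd1a, a Rab35 exchange factor. Sfxn5 rose by 1.17 (SE 0.07, adjusted p = 7.2e-07) and Nlrp6 by 1.24 (SE 0.07, adjusted p = 7.5e-07). Dennd1a rose by 1.28 (SE 0.07, adjusted p = 7.2e-07) and overlaps Crb2. In whole kidney, fewer cells of a type and less RNA of a gene per cell cannot be told apart, and this holds for every change given here.

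**Figure D2:**
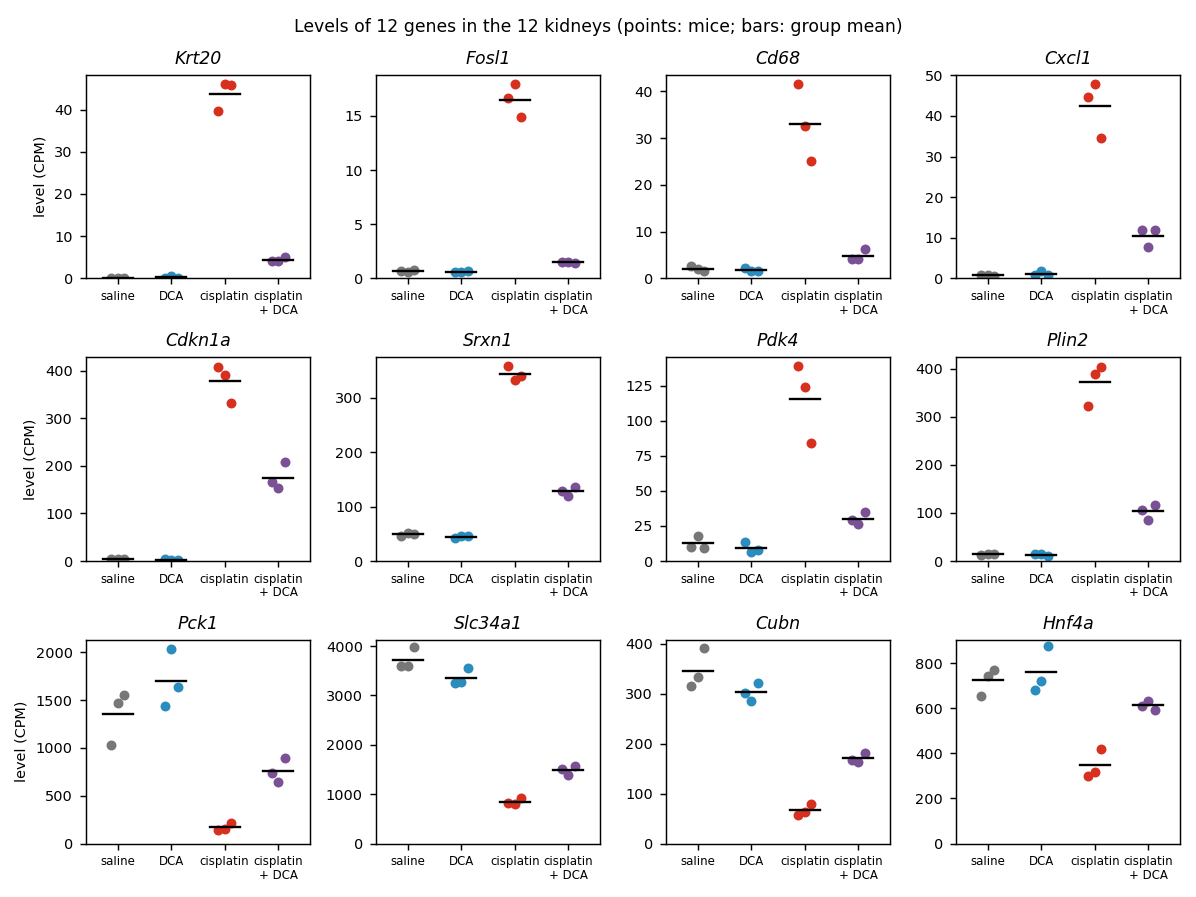
CPM on a linear axis from 0 for 12 genes in the 4 treatment groups, with 1 point per library and a bar at the group mean. Krt20, Fosl1, Cd68, Cxcl1, Cdkn1a, Srxn1, Pdk4 and Plin2 lie lower in the combination mice than in the cisplatin mice, and Pck1, Slc34a1, Cubn and Hnf4a lie higher.

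Immediate early genes, the transcription factors and phosphatases induced within minutes to hours of stress, were lower in the combination mice. Of 34 tested, 2 rose, 26 fell and 6 had no call, with a median of -0.74 beside 0.01 over all genes. Against saline the medians of this list were 1.37 in the cisplatin mice and 0.73 in the combination mice, in comparisons that share the cisplatin or the combination libraries with the one described. Junb, an AP-1 subunit, was at 73.8, 67.05 and 53.6 CPM in the cisplatin mice and 18.01, 21.9 and 24.7 CPM in the combination mice. Its groups were separate and the change was -1.59 (SE 0.13, adjusted p = 4.6e-06), for a gene whose span overlaps Prdx2. Myc, the growth-promoting transcription factor, was at 33.97, 28.9 and 27.5 CPM in the cisplatin mice and 9.98, 7.99 and 11.9 CPM in the combination mice, a change of -1.60 (SE 0.15, adjusted p = 1.1e-05) with no overlap. The rises were Maf (0.74, SE 0.06), a large Maf factor present in the healthy proximal tubule, and Dusp1 (0.45, SE 0.15), a phosphatase of MAP kinases, which was named after its value was seen and was not called under library totals. The median was -0.88 without cisplatin replicate 3.

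NF-kB subunits, their feedback inhibitors and the cytokines they drive were also lower. Of 39 tested, 4 rose, 21 fell and 14 had no call (median -0.63). Cxcl1, whose NF-kB matches are printed above, was at 44.8, 47.9 and 34.5 CPM in the cisplatin mice and 11.9, 7.85 and 11.9 CPM in the combination mice. The groups did not overlap and the change was -2.01 (SE 0.18, adjusted p = 7.7e-06), with a saline mean of 0.839 CPM. Nfkb2, the p100 subunit of NF-kB, was at 85.1, 78.4 and 64.9 CPM in the cisplatin mice and 32.8, 30.2 and 39.99 CPM in the combination mice, a change of -1.15 (SE 0.11, adjusted p = 1.1e-05). Rela, the p65 subunit, was at 96.2, 84.7 and 70.7 CPM in the cisplatin mice and 40.2, 41.98 and 43.9 CPM in the combination mice, a change of -1.0 (SE 0.09, adjusted p = 6.4e-06). In both genes each combination value was below each cisplatin value. Tnfaip3, the ubiquitin editor A20 that restrains NF-kB, changed by -1.04 (SE 0.11, adjusted p = 1.6e-05). The 4 that rose, named after their values were seen, were Cfb (0.30, SE 0.09), a complement factor, and the cytokine genes Il15 (0.63, SE 0.16), Il18 (0.67, SE 0.21) and Il1a (0.69, SE 0.24). Under library totals 1 rose and 27 fell, and of those 4 genes Il15 was still called. The median was -0.79 without combination replicate 2.

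Genes used as markers of tubular injury, among them keratins and secreted proteins, were mixed between falls and no call. Of 38 tested, 1 rose, 19 fell and 18 had no call (median -0.42, from -0.51 to -0.32 when 1 library was left out, the last without cisplatin replicate 2). Havcr1, the kidney injury molecule KIM-1, was at 148, 164 and 146 CPM in the cisplatin mice and 72.8, 96.4 and 77.6 CPM in the combination mice. The groups did not overlap and the change was -0.89 (SE 0.11, adjusted p = 6e-05), and the combination mean remained above the saline mean of 34.3 CPM. Tnfrsf12a, the receptor of TWEAK, was at 226, 235 and 176 CPM in the cisplatin mice and 70.5, 66.9 and 90.1 CPM in the combination mice, a change of -1.49 (SE 0.13, adjusted p = 4.8e-06). Fga, the fibrinogen alpha chain, was at 68.1, 80.96 and 81.4 CPM in the cisplatin mice and 32.5, 30.4 and 31.8 CPM in the combination mice, a change of -1.28 (SE 0.08, adjusted p = 1e-06). In both genes every combination value was below every cisplatin value. Lcn2, the neutrophil gelatinase-associated lipocalin NGAL, was at 4.57, 8.92 and 6.70 CPM in the cisplatin mice and 4.52, 5.41 and 4.08 CPM in the combination mice. Its change of -0.52 (SE 0.24) was not called (adjusted p = 0.13), and it was -0.76 with an adjusted p of 0.036 without cisplatin replicate 1. The only member that rose was Itgb6, an integrin subunit (0.45, SE 0.09), named after its value was seen.

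Targets of p53, the transcription factor that responds to DNA damage, fell in most cases, with a median still above the level without cisplatin. Of 44 tested, 3 rose, 29 fell and 12 had no call (median -0.33), and their medians against saline were 1.74 in the cisplatin mice and 1.26 in the combination mice. Cdkn1a, the cell cycle inhibitor p21, was at 408, 391 and 332 CPM in the cisplatin mice and 165, 153 and 208 CPM in the combination mice. The groups were separate, the change was -1.11 (SE 0.16, adjusted p = 0.00017), and the saline mean was 3.74 CPM. Mdm2, the ubiquitin ligase that degrades p53, was at 234, 202 and 186 CPM in the cisplatin mice and 134, 129 and 138 CPM in the combination mice, a change of -0.63 (SE 0.07, adjusted p = 3.3e-05). Among the pro-apoptotic BH3-only genes, Pmaip1 (Noxa) fell from 58.6 ± 17.6 to 19.7 ± 2.24 CPM (SD, n = 3), a change of -1.57 (SE 0.17), and Bbc3 (Puma) from 30.1 ± 4.24 to 13.1 ± 2.35 CPM (SD, n = 3), a change of -1.20 (SE 0.14). Btg2, an antiproliferative p53 target, fell from 196 ± 44.3 to 70.8 ± 8.28 CPM (SD, n = 3), a change of -1.47 (SE 0.13). The 3 that rose, named after their values were seen, were Sesn1 (0.34, SE 0.08), Sulf2 (0.34, SE 0.08) and Pvt1 (0.57, SE 0.16), and of these Sesn1 was not called under library totals.

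Many antioxidant genes controlled by NRF2 fell, while enzymes that remove superoxide and peroxide rose or were not called. Of 34 NRF2 targets tested, 2 rose, 17 fell and 15 had no call (median -0.27). Srxn1, with the AP-1 matches printed above, was at 359, 332 and 340.1 CPM in the cisplatin mice and 128, 119 and 136 CPM in the combination mice, and the groups did not overlap. Hmox1, the haem oxygenase, was at 141, 134 and 131 CPM in the cisplatin mice and 39.6, 42.8 and 54.6 CPM in the combination mice, a change of -1.57 (SE 0.11, adjusted p = 1.4e-06). Txnrd1, the cytosolic thioredoxin reductase, was at 644, 608 and 553 CPM in the cisplatin mice and 329, 277 and 332 CPM in the combination mice, a change of -0.95 (SE 0.07, adjusted p = 3e-06). All 3 genes were lower in every combination mouse than in every cisplatin mouse, as was Cbr3, a carbonyl reductase (-1.57, SE 0.12). The 2 that rose, named after their values were seen, were Cat, the catalase (0.28, SE 0.07), and Me1, the malic enzyme (0.49, SE 0.09). Of 18 genes for superoxide and peroxide removal, 12 rose, 0 fell and 6 had no call (median 0.26), and under library totals 9 rose and 1 fell. Sod3, the extracellular superoxide dismutase, rose from 129 ± 10.01 to 225 ± 14.5 CPM (SD, n = 3), a change of 0.81 (SE 0.07), and Msra, a methionine sulphoxide reductase, from 36.9 ± 2.74 to 67.7 ± 1.60 CPM (SD, n = 3), a change of 0.88 (SE 0.07). Txnrd2, the mitochondrial thioredoxin reductase, rose by 0.46 (SE 0.07) and Glrx, a glutaredoxin, by 0.36 (SE 0.06).

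Glutathione transferases, which conjugate electrophiles with glutathione, divided. Of 23 tested, 5 rose, 5 fell and 13 had no call (median -0.04), while under library totals 3 rose and 10 fell, with a median of -0.17. Gsta1 fell from 92.5 ± 14.1 to 41.2 ± 7.64 CPM (SD, n = 3), a change of -1.17 (SE 0.17, adjusted p = 0.0002), and Mgst1, a microsomal member, changed by -0.36 (SE 0.08). Near-identical Gsta and Gstm copies share reads, so the split of counts between them is uncertain. Gstz1, which breaks down dichloroacetate, was at 137, 135 and 152 CPM in the cisplatin mice and 236, 225 and 241 CPM in the combination mice. The groups were separate, with a rise of 0.73 (SE 0.07, adjusted p = 1.1e-05) and a saline mean of 309 CPM, and in mice without cisplatin the change with dichloroacetate was 0.03 (adjusted p = 0.92). Gstz1 overlaps Pomt2. Gstk1, a mitochondrial and peroxisomal member, rose by 0.46 (SE 0.07).

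Genes of the integrated stress response, which ATF4 drives when translation is curbed, gave 5 rises and 16 falls among 30 tested (median -0.21), and under library totals 3 rose and 18 fell. Slc3a2, the heavy chain of amino acid exchangers, was at 405, 357 and 338 CPM in the cisplatin mice and 182, 179 and 202 CPM in the combination mice, a change of -0.97 (SE 0.07, adjusted p = 3e-06) with no overlap. Ppp1r15a, the phosphatase subunit GADD34, changed by -0.74 (SE 0.10) and Cars, a cysteinyl-tRNA synthetase, by -0.39 (SE 0.05), while Vldlr, a lipoprotein receptor, rose by 0.38 (SE 0.05). Fewer falls were called among chaperones and degradation factors of the endoplasmic reticulum: of 25 tested, 9 rose, 1 fell and 15 had no call (median 0.17). Under library totals they counted 3 rises and 3 falls. Herpud1, a membrane factor of degradation, rose from 89.8 ± 6.63 to 179.6 ± 3.34 CPM (SD, n = 3), a change of 1.0 (SE 0.10), and the sensor Atf6 rose by 0.54 (SE 0.05), while the co-chaperone Dnajb9 changed by -0.34 (SE 0.08). Among 20 heat shock and metal response genes, 1 rose, 8 fell and 11 had no call. The small heat shock protein gene Hspb1 fell from 35.2 ± 3.59 to 15.8 ± 0.542 CPM (SD, n = 3), a change of -1.15 (SE 0.10), and Bag3 changed by -0.68 (SE 0.06) and Hspa1a, an Hsp70 gene with a near-identical copy, by -0.64 (SE 0.13). The 1 that rose, named after its value was seen, was the mitochondrial chaperone Hspd1 (0.24, SE 0.07), which was not called under library totals, where 0 of the list rose and 9 fell.

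Among genes of cell death beyond the p53 list, more fell than rose. Of 34 genes of apoptosis and regulated necrosis, 2 rose, 10 fell and 22 had no call (median -0.12). Over all genes tested, 18.1% rose and 13.5% fell. Mlkl, the pore-forming protein of necroptosis, fell from 3.82 ± 0.156 to 1.86 ± 0.154 CPM (SD, n = 3), a change of -1.03 (SE 0.18), Tnfrsf1a, a TNF receptor, from 94.7 ± 7.37 to 59.5 ± 1.32 CPM (SD, n = 3), a change of -0.67 (SE 0.09), and Tnfrsf1b from 5.98 ± 0.573 to 3.40 ± 0.144 CPM (SD, n = 3), a change of -0.81 (SE 0.18). Mcl1, an anti-apoptotic BCL2 relative, also fell (-0.29, SE 0.06). The 2 that rose, named after their values were seen, were Gsdme (0.27, SE 0.07), a gasdermin, and Acsl4 (0.34, SE 0.09), which loads arachidonic acid into membrane lipids. Neither was called under library totals, where 0 rose and 13 fell. Of 32 DNA repair genes, 5 rose, 4 fell and 23 had no call (median 0.02). Under library totals 3 rose and 11 fell, with a median of -0.11. Ercc1, which cuts DNA at platinum adducts, fell from 17.02 ± 1.25 to 10.2 ± 0.518 CPM (SD, n = 3), a change of -0.73 (SE 0.09) and overlaps Cd3eap, while Prkdc, the kinase of end joining, rose from 6.58 ± 0.583 to 10.7 ± 0.477 CPM (SD, n = 3), a change of 0.70 (SE 0.08). Mgmt, which removes alkyl groups from guanine, was at 0.483, 0.446 and 0.750 CPM in the cisplatin mice and 2.18, 3.04 and 2.53 CPM in the combination mice, low levels with no overlap and a change of 2.19 (SE 0.23).

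Genes that carry cisplatin into or out of tubule cells or process its conjugates counted 10 rises, 3 falls and 5 without a call among 18 tested (median 0.33). Slc47a1, the MATE1 exporter of organic cations, was at 404, 406 and 446 CPM in the cisplatin mice and 605, 583 and 651 CPM in the combination mice. It rose by 0.55 (SE 0.07, adjusted p = 4.7e-05) without overlap. Slc22a2, the basolateral cation transporter OCT2 that takes up cisplatin, was named after its value was seen and rose from 174 ± 14.7 to 248 ± 22.7 CPM (SD, n = 3), a change of 0.51 (SE 0.08), with a saline mean of 329.5 CPM. Ggt1 and Anpep, the surface enzymes that trim glutathione conjugates, rose by 0.56 (SE 0.06) and 0.60 (SE 0.07). The exporter Abcc2 fell from 279.5 ± 28.1 to 175 ± 15.1 CPM (SD, n = 3), a change of -0.68 (SE 0.08), as did Abcb1a (-0.29, SE 0.10) and Abcb1b (-0.47, SE 0.12), 2 similar P-glycoprotein genes named after their values were seen. These levels were measured 24 h after the injection and no platinum content is part of the data used here.

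Transporters of the proximal tubule, the longest list, had the most rises by number but not by share (20 of 21 in the citric acid cycle). Of 58 tested, 46 rose, 1 fell and 11 had no call (median 0.58), and 43 rose and 1 fell under library totals. Against saline the medians were -0.97 in the cisplatin mice and -0.48 in the combination mice. Slc34a1, the sodium phosphate carrier that defines this segment, was at 829.6, 799 and 916 CPM in the cisplatin mice and 1515, 1384 and 1563 CPM in the combination mice. It rose by 0.81 (SE 0.07, adjusted p = 4.3e-06) with no overlap, and its saline mean was 3724 CPM. The gene overlaps Pfn3. Cubn, the cubilin receptor for filtered protein, was at 56.4, 64.1 and 78.8 CPM in the cisplatin mice and 168, 162 and 181 CPM in the combination mice, a change of 1.36 (SE 0.11, adjusted p = 3.9e-06). Slc6a20b, an imino acid carrier, was at 76.8, 79.8 and 93.7 CPM in the cisplatin mice and 162, 155 and 180.2 CPM in the combination mice, a change of 0.99 (SE 0.09, adjusted p = 7.7e-06). Both had separate groups, and both stayed below their saline means of 346 and 284 CPM. The other defining markers of this segment rose as well, Lrp2 (megalin) by 1.0 (SE 0.11) and Slc22a6, the anion transporter OAT1, by 0.92 (SE 0.11). The only fall was Slc20a1, a widely expressed phosphate carrier (-0.91, SE 0.12), named after its value was seen.

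Metabolic and brush border enzymes of the same cells followed with 30 rises, 1 fall and 7 without a call of 38 tested (median 0.61). Ttc36, a tetratricopeptide protein, was at 125, 136 and 149 CPM in the cisplatin mice and 304, 305 and 310.3 CPM in the combination mice, a change of 1.16 (SE 0.08, adjusted p = 2e-06). Acy3, an aminoacylase of mercapturic acids, was at 374, 430.0 and 491 CPM in the cisplatin mice and 1021, 866 and 1066 CPM in the combination mice, a change of 1.19 (SE 0.10, adjusted p = 4.5e-06). Hao2, a peroxisomal hydroxyacid oxidase, was at 243, 274 and 327 CPM in the cisplatin mice and 659, 653 and 625 CPM in the combination mice, a change of 1.20 (SE 0.10, adjusted p = 3.6e-06). None of the 3 had overlapping groups, and Hao2 differed from the others in that its combination mean was above its saline mean of 400.1 CPM. Cltrn (collectrin), a partner of amino acid carriers, rose by 0.50 (SE 0.05). The fall was Gsta2 (-0.66, SE 0.16), a glutathione transferase also counted above and named after its value was seen. Kynu (kynureninase) and Bhmt (betaine homocysteine methyltransferase) were named for their interaction with cisplatin. Kynu was at 3.29, 3.24 and 4.75 CPM in the cisplatin mice and 7.54, 8.48 and 6.79 CPM in the combination mice, and Bhmt at 4.57, 4.73 and 5.80 CPM in the cisplatin mice and 11.6, 8.48 and 14.4 CPM in the combination mice. Both groups were separate in each gene, with changes of 1.01 (SE 0.25) and 1.18 (SE 0.17).

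Transcription factors that set tubule identity rose in 20 of 37 cases, fell in 2 and were not called in 15 (median 0.27). Hnf4a, the nuclear receptor required for proximal tubule maturation, was at 301, 318 and 418 CPM in the cisplatin mice and 609, 634 and 594 CPM in the combination mice. It rose by 0.82 (SE 0.12, adjusted p = 0.00016) with no overlap, its saline mean was 724 CPM, and it overlaps the antisense gene Hnf4aos. Hnf4g, a relative of Hnf4a, rose from 7.65 ± 1.15 to 17.8 ± 2.25 CPM (SD, n = 3), a change of 1.21 (SE 0.17), and Esrrg, an orphan receptor that drives oxidative genes, from 15.9 ± 3.54 to 32.98 ± 1.86 CPM (SD, n = 3), a change of 1.04 (SE 0.11). Ppara, the fatty acid receptor, was at 22.8, 19.1 and 24.5 CPM in the cisplatin mice and 47.5, 40.3 and 49.2 CPM in the combination mice, a change of 1.04 (SE 0.14, adjusted p = 0.00013). Ppargc1a, the coactivator PGC-1alpha of mitochondrial biogenesis, was at 41.4, 36.4 and 45.6 CPM in the cisplatin mice and 61.98, 64.2 and 55.1 CPM in the combination mice, a change of 0.55 (SE 0.10, adjusted p = 0.0011). Groups were separate in both genes. The 2 that fell, named after their values were seen, were Nr3c1, the glucocorticoid receptor (-0.25, SE 0.05), and Hoxb7 (-0.22, SE 0.07). Exact matches on either strand to CAAAGTCCA, a core that HNF4 binds, were in 0.384% of all promoter windows and 0.361% of windows of tested genes. They were in 1 of 219 windows (0.457%) of genes that rose by at least 1 and in 3 of 254 windows (1.18%) of genes that fell by as much. These counts are too small to compare.

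**Figure D3:**
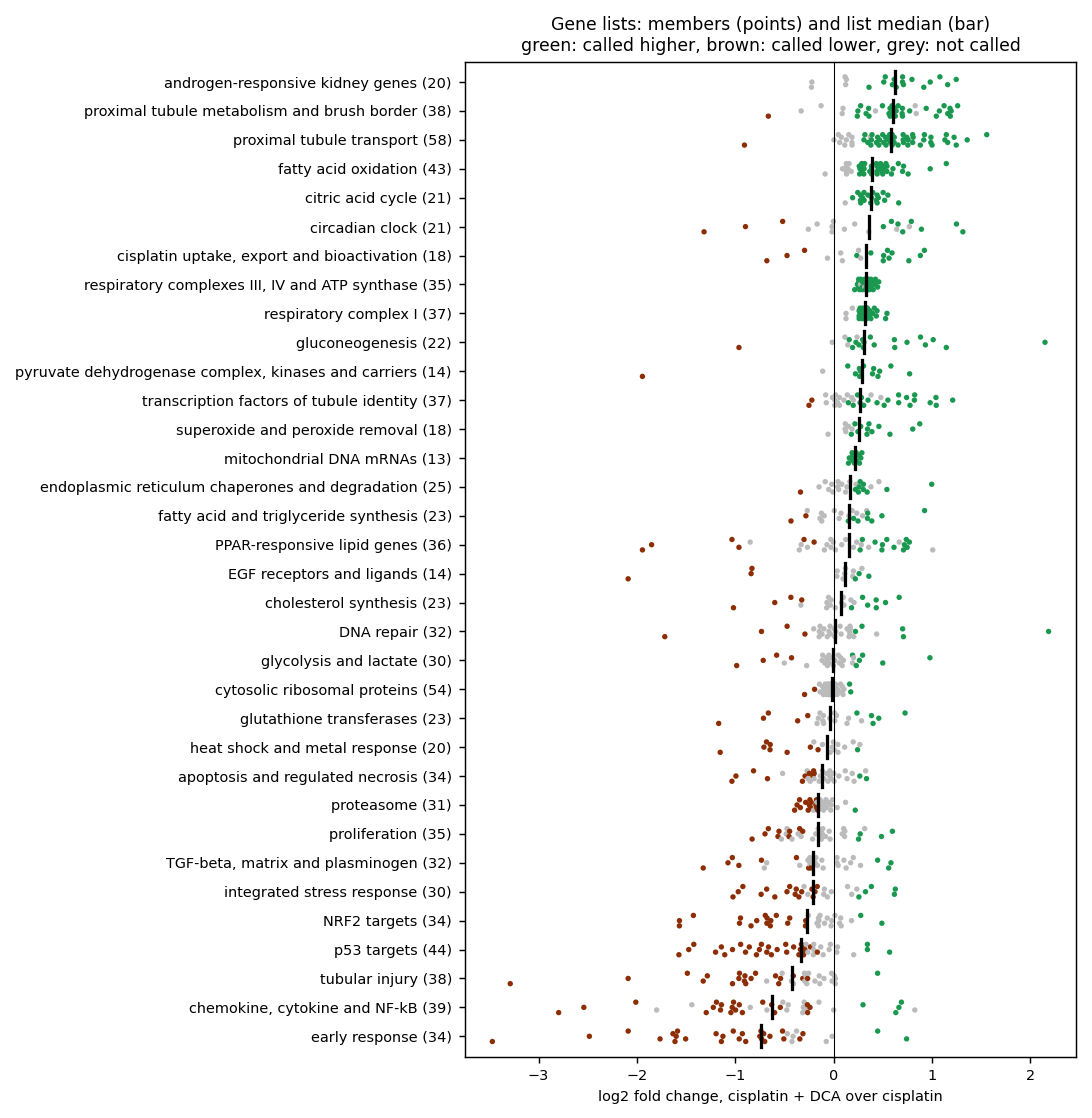
The log2 fold change of combination over cisplatin for every tested member of each gene list, 1 point per gene, coloured where called, with the list's median as a bar and a line at 0. Early response (-0.74) and chemokine (-0.63) lists have the lowest medians, and androgen-responsive (0.63), proximal tubule metabolism (0.61) and proximal tubule transport (0.58) lists the highest.

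The pathway on which dichloroacetate acts was measured in 14 genes of the pyruvate dehydrogenase complex, its kinases and phosphatases and the mitochondrial pyruvate carrier, of which 12 rose, 1 fell and 1 had no call (median 0.29). Pdk4, the kinase induced by fasting and PPAR signalling, was the 1 that fell, at 139, 124 and 84.1 CPM in the cisplatin mice and 29.3, 26.03 and 34.8 CPM in the combination mice. The groups were far apart, the change was -1.94 (SE 0.27, adjusted p = 0.00014), and the combination mean was above the saline mean of 12.6 CPM. Pdk2, the most widely expressed kinase of the family, went the other way, at 87.98, 79.9 and 91.6 CPM in the cisplatin mice and 149, 147 and 148 CPM in the combination mice. It rose by 0.77 (SE 0.07, adjusted p = 1e-05) with no overlap, against a saline mean of 229.9 CPM. Pdk1 rose by 0.47 (SE 0.10, adjusted p = 0.0035), from 8.16 ± 0.837 to 11.3 ± 0.968 CPM (SD, n = 3), and Pdk3 by 0.31 (SE 0.07, adjusted p = 0.0029), from 27.4 ± 0.551 to 33.9 ± 1.16 CPM (SD, n = 3). Pdha1, the catalytic subunit that the kinases phosphorylate, was at 253, 257 and 273 CPM in the cisplatin mice and 349, 336 and 354 CPM in the combination mice. It rose by 0.41 (SE 0.05, adjusted p = 6.9e-05) without overlap and shares part of its span with Map3k15. Mpc2, a subunit of the pyruvate carrier, rose by 0.45 (SE 0.07). The member without a call was the phosphatase Pdp1 (-0.11, SE 0.13, adjusted p = 0.59). These are transcript levels, and phosphorylation of the complex was not measured in the data used here.

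In mice without cisplatin the fold change with dichloroacetate was -0.48 for Pdk4 (adjusted p = 0.56), -0.09 for Pdk2 (adjusted p = 0.66) and 0.11 for Pdk1 (adjusted p = 0.7), none of them called. Pdk3 rose by 0.35 (adjusted p = 0.041). The difference between the effect with and without cisplatin was -1.47 for Pdk4 (adjusted p = 0.021) and 0.87 for Pdk2 (adjusted p = 0.00016), both called by the interaction term. For Pdk1 it was 0.35 (adjusted p = 0.1) and for Pdk3 -0.04 (adjusted p = 0.81), not called.

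Glucose synthesis, which the kidney shares with the liver and which starts from lactate and glutamine in the proximal tubule, gave 17 rises, 1 fall and 4 without a call of 22 genes (median 0.31), and under library totals 11 rose and 1 fell. Fbp1, the fructose bisphosphatase, was at 225, 252 and 280.4 CPM in the cisplatin mice and 506, 449.8 and 494 CPM in the combination mice, a change of 0.93 (SE 0.09, adjusted p = 9.9e-06). Slc25a10, the mitochondrial dicarboxylate carrier, was at 159, 172 and 195 CPM in the cisplatin mice and 371, 307 and 386 CPM in the combination mice, a change of 1.01 (SE 0.09, adjusted p = 6e-06). Both of these genes and Pck1 had no overlap between groups. The fall was Creb3l3, a membrane-bound transcription factor at low levels (-0.96, SE 0.27), named after its value was seen. Of 30 genes of glycolysis and lactate handling, 6 rose, 4 fell and 20 had no call (median -0.01). Pklr, the pyruvate kinase of liver and kidney, fell from 92.03 ± 5.98 to 56.1 ± 7.81 CPM (SD, n = 3), a change of -0.71 (SE 0.08), and Slc16a3, a lactate exporter, from 1.62 ± 0.201 to 0.817 ± 0.0267 CPM (SD, n = 3), a change of -0.98 (SE 0.18). Pfkm, a phosphofructokinase, rose from 28.8 ± 2.46 to 40.8 ± 1.51 CPM (SD, n = 3), a change of 0.50 (SE 0.06), and Ldhb, the lactate dehydrogenase subunit favoured in oxidative tissue, rose by 0.30 (SE 0.05). Under library totals 3 glycolysis genes rose and 6 fell, with a median of -0.14.

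Citric acid cycle enzymes rose together: of 21 tested, 20 rose, 0 fell and 1 had no call (median 0.38, and 0.25 with 18 rises under library totals). Suclg2, a subunit of succinyl-CoA ligase, was at 136, 143 and 156 CPM in the cisplatin mice and 204, 192 and 220.0 CPM in the combination mice, a change of 0.50 (SE 0.07, adjusted p = 0.00011). Sdhb, the iron-sulphur subunit of succinate dehydrogenase, was at 178, 184 and 197 CPM in the cisplatin mice and 272, 274 and 274 CPM in the combination mice, a change of 0.55 (SE 0.06, adjusted p = 1.5e-05). Both genes had separate groups. Idh1, the cytosolic isocitrate dehydrogenase, rose from 329 ± 22.8 to 522 ± 28.2 CPM (SD, n = 3), a change of 0.66 (SE 0.07), above its saline mean of 417 CPM. The 1 without a call was Cs, the citrate synthase (0.12, SE 0.05), named after its value was seen.

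Enzymes of fatty acid oxidation in mitochondria and peroxisomes gave 34 rises, 0 falls and 9 without a call of 43 tested (median 0.39). Slc27a2, a very long chain acyl-CoA synthetase, was at 606, 768 and 899 CPM in the cisplatin mice and 1693, 1597 and 1745 CPM in the combination mice, a change of 1.15 (SE 0.11, adjusted p = 1.1e-05). Echs1, the short-chain enoyl-CoA hydratase, was at 110.1, 113 and 115 CPM in the cisplatin mice and 164, 158 and 171 CPM in the combination mice, a change of 0.54 (SE 0.06, adjusted p = 4e-05). Acsm3, a medium-chain acyl-CoA synthetase, was at 74.9, 92.8 and 88.6 CPM in the cisplatin mice and 159.7, 156 and 192 CPM in the combination mice, a change of 0.98 (SE 0.11, adjusted p = 3.7e-05). Each of the 3 was higher in every combination mouse, although Acsm3 overlaps Eri2. Acox2, a peroxisomal oxidase, rose by 0.76 (SE 0.07). Genes known to respond to PPAR ligands were divided: of 36 tested, 12 rose, 6 fell and 18 had no call (median 0.16, and 0.38 without cisplatin replicate 3). Plin2, which coats lipid droplets, was at 323, 388 and 404 CPM in the cisplatin mice and 106, 86.2 and 117 CPM in the combination mice. It fell by 1.85 (log2, SE 0.12, adjusted p = 1.2e-06) without overlap, to a mean above the 13.98 CPM of saline mice. Hilpda, a lipid droplet protein that inhibits lipolysis, changed by -1.03 (SE 0.14), and Tmem25 rose by 0.74 (SE 0.08).

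Nuclear genes of the respiratory chain rose by small and even amounts. Of 37 complex I subunits, 34 rose, 0 fell and 3 had no call, with a median of 0.32, and of 35 genes of complexes III and IV and ATP synthase, 33 rose, 0 fell and 2 had no call (median 0.33). Under library totals 23 of each list rose and none fell, with medians of 0.2 and 0.21. Ndufs1, a core iron-sulphur subunit, was at 147, 151 and 176 CPM in the cisplatin mice and 211, 219.8 and 212 CPM in the combination mice, a change of 0.44 (SE 0.06, adjusted p = 0.00015). Uqcrfs1, the Rieske protein of complex III, was at 237, 237 and 249 CPM in the cisplatin mice and 323, 327 and 322 CPM in the combination mice, a change of 0.43 (SE 0.05, adjusted p = 6e-05). Groups did not overlap in either gene. Ndufb5, Ndufa9 and Ndufv3 rose by 0.42, 0.44 and 0.54, Atp5a1 and Atp5c1, subunits of the ATP synthase, by 0.35 and 0.42, and Uqcrc1 by 0.32, with SEs from 0.05 to 0.07. In these 2 lists and those of the citric acid cycle, fatty acid oxidation, superoxide and peroxide removal and the collecting duct, no gene was lower at an unadjusted edgeR p below 0.05 with TMM scaling, and neither DESeq2 nor limma-voom called a fall.

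All 13 mRNAs of mitochondrial DNA were called higher with TMM scaling (median 0.22), but this rested on the scaling: with library totals 2 of 13 were called and the median was 0.09. mt-Cytb, the cytochrome b of complex III, was at 7000.0, 6904 and 7805 CPM in the cisplatin mice and 8548, 9167 and 8806 CPM in the combination mice, a change of 0.29 (SE 0.06, adjusted p = 0.0016). mt-Nd4, a complex I subunit, was at 6615, 6608 and 7303 CPM in the cisplatin mice and 8044, 8594 and 8249 CPM in the combination mice, a change of 0.28 (SE 0.05, adjusted p = 0.0011). Both were higher in every combination mouse on this scale. As shares of all counts, which need no scaling factor, the 13 mRNAs made up 11.9% ± 0.28 (SD, n = 3) in the combination mice and 11.3% ± 0.45 (SD, n = 3) in the cisplatin mice. The difference was 0.581 percentage points (p = 0.3 in an exact 2-sided permutation test, which with 3 against 3 cannot go below 0.1 and so could not pass 0.05).

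Genes that depend on androgens in the male mouse kidney had a median of 0.63: of 20 tested, 15 rose, 0 fell and 5 had no call, 2 were lower at an unadjusted edgeR p below 0.05, and DESeq2 called 1 fall. Under library totals 13 rose and 2 fell. Slc22a30 and Slc22a28, organic anion transporters, rose by 1.25 (SE 0.14) and 1.16 (SE 0.13), and Acsm2 by 0.70 (SE 0.09), from 1742 ± 200.4 to 2835 ± 241 CPM (SD, n = 3). Most of these genes are expressed in the proximal tubule. Those that are also members of lists above include Acsm3, Kap, Cyp4a12a, Slc22a28 and Slc22a30. Clock genes divided: of 21 tested, 8 rose, 3 fell and 10 had no call (median 0.36). Hlf, an output factor of the clock, was at 32.01, 30.6 and 44.6 CPM in the cisplatin mice and 91.95, 79.01 and 96.3 CPM in the combination mice, a change of 1.32 (SE 0.13, adjusted p = 1e-05). Cry1, a repressor of the clock, was at 10, 11 and 10.1 CPM in the cisplatin mice and 5.07, 5.79 and 5.82 CPM in the combination mice, a change of -0.90 (SE 0.09, adjusted p = 1.6e-05). Groups were separate in both genes. Tef, a relative of Hlf, rose by 0.79 (SE 0.10) and Nr1d2, a REV-ERB receptor, by 0.59 (SE 0.09). The median ran from 0.2 without cisplatin replicate 2 to 0.57 without cisplatin replicate 3, and the hour of collection is not given in the labels.

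Of 35 proliferation genes, 4 rose, 9 fell and 22 had no call (median -0.16). The replication genes Mcm3 (-0.83, SE 0.14), Mcm7 (-0.45, SE 0.08) and Pcna (-0.56, SE 0.06) fell, the last from 57.3 ± 5.91 to 38.7 ± 0.998 CPM (SD, n = 3), and Ccnd1, cyclin D1, rose from 84.4 ± 5.30 to 128 ± 6.09 CPM (SD, n = 3), a change of 0.60 (SE 0.07). Mcm7 hosts microRNA genes in its introns. Of 32 genes of TGF-beta signalling, matrix and plasminogen, 3 rose, 8 fell and 21 had no call. Adamts1, a matrix protease, fell from 115 ± 18.1 to 54.8 ± 5.77 CPM (SD, n = 3), a change of -1.07 (SE 0.13), Tgif1, a corepressor of SMAD proteins, fell by 1.03 (SE 0.11), and Bmp7, a growth factor that supports the tubule, rose from 24.6 ± 1.51 to 36.9 ± 1.72 CPM (SD, n = 3), a change of 0.58 (SE 0.06). Of 14 EGF receptor family genes and ligands, 3 rose, 3 fell and 8 had no call (median 0.12). Under library totals 0 rose and 3 fell, with a median of -0.01. Hbegf, a ligand released in injury, fell from 23.3 ± 4.27 to 13.03 ± 0.591 CPM (SD, n = 3), a change of -0.84 (SE 0.12), and so did Rhbdf2, which guides the sheddase of such ligands (-0.83, SE 0.08). The receptors Erbb2 (0.22, SE 0.05) and Erbb3 (0.26, SE 0.08) rose, but neither was called under library totals.

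Lipid synthesis genes changed in both directions. Of 23 cholesterol synthesis genes, 7 rose, 4 fell and 12 had no call (median 0.08). Under library totals 4 rose and 4 fell, with a median of -0.05. Nsdhl (0.67, SE 0.07) and Cyp51 (0.44, SE 0.08), enzymes of the late pathway, and Stard4 (0.43, SE 0.07), a sterol carrier, rose, and Msmo1 (-0.60, SE 0.11), a further late enzyme, fell. Of 23 genes of fatty acid and triglyceride synthesis, 8 rose, 2 fell and 13 had no call (median 0.16), while under library totals 4 rose and 6 fell, with a median of 0.03. Acaca, the acetyl-CoA carboxylase that makes malonyl-CoA, rose from 5.58 ± 1.01 to 10.6 ± 1.60 CPM (SD, n = 3), a change of 0.93 (SE 0.12), while Dgat2 (0.35, SE 0.06) and Elovl5 (0.35, SE 0.06) rose less and Lpin3 fell (-0.43, SE 0.08). Proteasome subunits counted 1 rise and 14 falls of 31 (median -0.16), and 0 rises and 28 falls under library totals. Psmd4 (-0.40, SE 0.06), Psmd11 (-0.37, SE 0.06), Psmd2 (-0.35, SE 0.06) and Psmd7 (-0.34, SE 0.05), lid and base subunits, were among the falls, and the rise, named after its value was seen, was Psma4 (0.22, SE 0.06). Among 54 cytosolic ribosomal protein genes 2 rose, 2 fell and 50 had no call (median -0.02), though under library totals none rose and 28 fell, with a median of -0.15.

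The libraries held the defining markers of the other kidney segments. The fold change was -0.07 (adjusted p = 0.73) for Umod, the thick ascending limb protein uromodulin, 0.04 for Aqp2, the water channel of the collecting duct, 0.01 for Nphs1, the podocyte nephrin, and -0.03 for Pecam1, of endothelium, none of them called. Among the other defining markers, Slc12a3, the salt cotransporter of the distal convoluted tubule, rose by 0.46 (adjusted p = 0.011) and Scnn1g, a sodium channel subunit of the collecting duct, by 0.20 (adjusted p = 0.037). Of 25 loop and distal tubule markers, 7 rose, 2 fell and 16 had no call (median 0.16), and their summed levels were 3557, 3421 and 4084 CPM in the cisplatin mice and 4194, 4870 and 3893 CPM in the combination mice, which overlap. Kcnj16, a potassium channel subunit, rose from 538 ± 49.3 to 930.5 ± 92.1 CPM (SD, n = 3), a change of 0.79 (SE 0.08), Pvalb, a marker of the distal convoluted tubule, from 8.28 ± 0.186 to 12.8 ± 1.90 CPM (SD, n = 3), a change of 0.64 (SE 0.13), and Kcnj10 (0.32, SE 0.06) and Cnnm2 (0.60, SE 0.07) rose as well. Of 23 collecting duct markers, 10 rose, 0 fell and 13 had no call (median 0.17), beside 5 rises under library totals, with sums of 1038, 1038 and 1091 CPM against 1288, 1333 and 1188 CPM. Atp6v0a4, a proton pump subunit, rose from 112 ± 18.03 to 187 ± 3.04 CPM (SD, n = 3), a change of 0.74 (SE 0.10), and Aqp3 (0.40, SE 0.06), Scnn1a (0.38, SE 0.07) and Hsd11b2 (0.33, SE 0.07) rose too.

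Of 18 podocyte markers, 3 rose, 1 fell and 14 had no call (median 0.01). Under library totals 3 rose and 3 fell, with a median of -0.12. Their sums were 460.8 to 494.6 CPM and 597.2 to 603.7 CPM, and the rises were Col4a3 (0.80, SE 0.12) and Col4a4 (0.75, SE 0.08), a divergently transcribed pair of collagen genes, and Dach1 (0.50, SE 0.10). Of 21 endothelial markers, 0 rose, 1 fell and 20 had no call (sums of 565 to 590.6 CPM and 484.6 to 579.1 CPM), the 1 being Plat (-0.25, SE 0.07), which is also a plasminogen activator of tubules, and 2 fell under library totals. Of 20 fibroblast and smooth muscle markers none was called by edgeR or limma-voom and 1 by DESeq2, and 1 had an unadjusted edgeR p below 0.05 (sums of 326 to 342.7 CPM and 289.7 to 348.1 CPM).

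Among immune cell markers, Cd68 had the largest change. Of 25 macrophage markers, 1 rose, 3 fell and 21 had no call (median -0.18), and their summed level, Cd68 included, was 235.1 to 279.1 CPM in the cisplatin mice and 213.4 to 239.1 CPM in the combination mice. The defining markers Csf1r (0.23, adjusted p = 0.106) and Adgre1 (-0.41, adjusted p = 0.242) were not called. Cd14, a receptor for bacterial lipid that tubule cells also express, fell from 20.5 ± 4.05 to 9.52 ± 1.20 CPM (SD, n = 3), a change of -1.10 (SE 0.15), and Mertk, a receptor for dying cells, rose from 21.5 ± 2.58 to 36.4 ± 2.93 CPM (SD, n = 3), a change of 0.76 (SE 0.08). Of 7 neutrophil markers tested, 1 rose, 2 fell and 4 had no call. S100a9 fell (-0.90, adjusted p = 0.025) at group means below 1 CPM, and S100a8 was not called (-1.21, adjusted p = 0.069). Ly6g fell (-0.41, SE 0.15, adjusted p = 0.049) and Hdc, the histidine decarboxylase, rose (0.57, SE 0.18). Ly6g was not called by limma-voom (adjusted p = 0.053). Both Ly6g and Hdc lost their call when some single libraries were left out. Under library totals 0 of these markers rose and 3 fell. The neutrophil sums were 32.72 to 37.42 CPM and 28.54 to 32.56 CPM. Of the 7 markers tested, Ly6g (means of 24.13 and 18.15 CPM) and Hdc (5.668 and 8.459 CPM) had the highest levels. S100a8 and S100a9 had means below 1 CPM in both groups, so the sums rest largely on Ly6g and Hdc. Of 10 lymphocyte markers and 8 erythroid markers none was called by edgeR, DESeq2 or limma-voom or had an unadjusted edgeR p below 0.05, with sums of 10.57 to 12.22 against 11.63 to 12.61 CPM and 120.2 to 196.1 against 160.2 to 178.7 CPM. Of 11 adipocyte markers the 1 called was Acsl1 (0.37, SE 0.09), an acyl-CoA synthetase that tubules also express. Acsl1 was not called under library totals. The adipocyte sums were 153 to 189.1 CPM in the cisplatin mice and 174.9 to 228.6 CPM in the combination mice. Of 4 adrenal markers tested the 1 called was Hsd3b6 (0.83, SE 0.13), with sums of 7.935 to 8.775 and 12.32 to 13.1 CPM. The part that these differences between cell types play in the changes described above was not tested.

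The share of genes that rose was higher among long genes than among short ones. Among 1301 genes with an annotated span of 100 to 200 kb, 43% rose and 2.61% fell, with a median of 0.23, and among 537 genes of 200 to 400 kb, 46.6% rose and 1.86% fell, with a median of 0.36. Among 5469 genes of up to 5 kb, 11.2% rose and 11.3% fell, with a median of -0.01. Genes of 5 to 20 kb (5761) and 20 to 50 kb (4328) had medians of -0.04 and 0, and genes of 50 to 100 kb (2185) a median of 0.07. The 243 genes above 400 kb had a median of 0.26, with 27.6% rising and 1.23% falling. In genes of at least 5 CPM the medians of the same bins, from short to long, were 0, -0.04, 0, 0.08, 0.26, 0.51 and 0.38. In mice without cisplatin, the medians of the effect of dichloroacetate lay between -0.03 and 0.01 in all 7 bins. Under library totals the order of the medians was kept, while that at 50 to 100 kb turned from 0.07 to -0.05, with 0.1 at 100 to 200 kb and 0.24 at 200 to 400 kb. Among the 10 largest rises named above, Snx29 spans 433 kb, Adk 396 kb, Thrb 378 kb and Ksr2 361 kb, and Ldlrad3 and Gfra1 span 236 and 220.3 kb, while Pck1 and Slc13a2 lie in the bins of up to 50 kb.

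**Figure D4:**
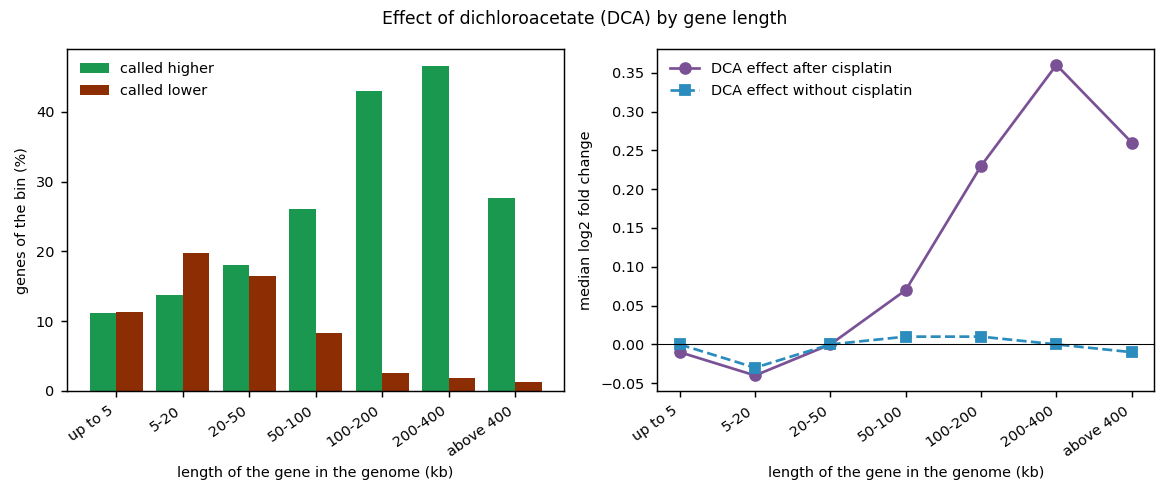
The percentage of genes called higher and lower (left) and the median log2 fold change of combination over cisplatin and of dichloroacetate over saline (right), by bins of annotated gene span in kb. The share that rose climbs from 11.2% in genes of up to 5 kb to 46.6% at 200 to 400 kb, and the medians without cisplatin stay within -0.03 to 0.01.

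Fewer genes were called for dichloroacetate without cisplatin. Against saline, 63 genes were called (0.309%), 26 higher (0.128%) and 37 lower (0.182%). DESeq2 called 189 higher and 167 lower, and edgeR with no filter 55 and 64. The SD of the log2 fold changes over all genes was 0.26 beside 0.451 in cisplatin-treated mice. The 2 comparisons share no library. Across the 20370 genes their fold changes had a Pearson correlation of 0.0398 and a Spearman correlation of 0.0477, and across the 12530 genes of at least 5 CPM these were 0.0743 and 0.0803. They are given as a description, since genes are not independent replicates and the 4 groups share scaling and processing. Of the 63 genes called by edgeR, 32 had a fold change of the same sign with cisplatin. With cisplatin, 24 of the 63 were called in the same direction and 23 in the opposite direction. Over all genes tested, 31.6% were called with cisplatin in either direction. Acsm3 was called in both comparisons, with 0.89 without cisplatin and 0.98 with it, and Cry1 with 0.98 and -0.90.

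The interaction term, the effect of dichloroacetate with cisplatin minus that without it, was called for 3783 genes (18.6%), 2327 higher (11.4%) and 1456 lower (7.15%). Among genes of at least 5 CPM in their highest group, the lowest called values were Krt20 (-4.33, SE 0.65), Fosl1 (-3.24), Cxcl10 (-2.72), Cd68 (-2.58) and Cxcl1 (-2.50). In the same genes, high called values included Slc25a21, a mitochondrial carrier of oxodicarboxylates that overlaps Pax9 (2.68), Ksr2 (2.47), Bhmt (2.06) and Kynu (1.99). By list, the interaction was called higher in 43 of 58 proximal tubule transport genes and in 13 of 21 citric acid cycle genes, and lower in 24 of 44 p53 targets and in 18 of 34 early response genes. Other lists had fewer calls. The interaction was called higher in 7 of 37 complex I genes and 8 of 35 genes of complexes III and IV and ATP synthase. It was called higher in 4 of 14 pyruvate dehydrogenase pathway genes and in 0 of 13 mRNAs of mitochondrial DNA.

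**Figure D5:**
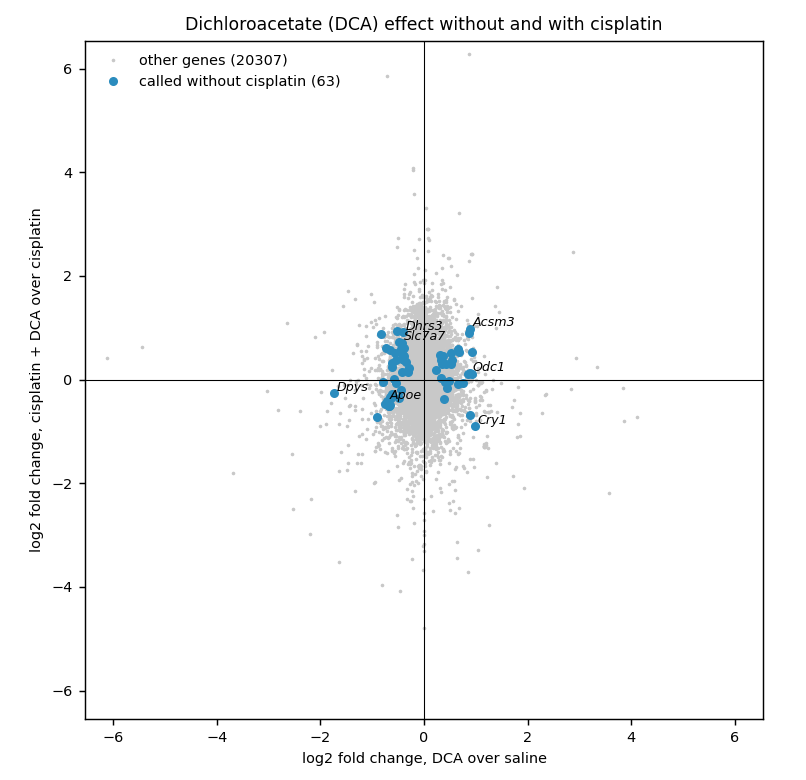
The log2 fold change of dichloroacetate over saline (x axis) and of combination over cisplatin (y axis) for the 20370 genes tested, with the 63 genes called without cisplatin in blue. The cloud is taller than it is wide (SD 0.451 against 0.26), and the blue points lie both above and below 0 on the y axis.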

How the data were processed

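Whole-kidney RNA in 12 libraries (3 per group) was measured by RNA sequencing with an unstranded library kit, per the labels' protocols. The authors deposited raw counts per Ensembl gene, and the submitters' processing notes name Trimmomatic, TopHat, Cufflinks, HTSeq, bedtools, DESeq and mm10, without versions or roles. How reads of overlapping genes were counted is not stated by the labels or notes. The table of normalised values was not used here.

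Counts were analysed in R 4.3.3 with edgeR 4.0.16: filterByExpr, TMM factors, 1 quasi-likelihood fit over all 12 libraries with a mean per group (common biological coefficient of variation 0.092), 2-sided tests, and Benjamini-Hochberg adjustment over all 20370 genes, with calls below 0.05. Fold changes come from that fit, and SEs are the fold change divided by the root of its F statistic. The labels speak of a mouse for each sample and of biological replicates, and p-values measure the spread between these libraries. Replicate pairs differed by more than sampling noise (chi-square per degree of freedom 4.4 to 26.3). On simulated counts, 48 of 66 genes changed by 0.5 on the log2 scale were recovered, 61 of 67 changed by 1 and 65 of 67 changed by 2, with 8 false calls. The simulation changed 200 of 20370 genes, in both directions, whereas 6441 were called in the data. It therefore does not test the scaling, and its recovery and false calls need not hold where so many genes differ.

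Symbols and coordinates came from GENCODE M21 (mm10), which matched 27955 of 28991 identifiers. The 45 lists held 1261 entries, of which 5 were matched by synonym and 15 not matched. The comparison, the lists and the rule for named genes were chosen with earlier results of these data known. That rule took, among called genes with a symbol, non-overlapping groups and a higher-group mean of 5 CPM or more, the 10 largest rises and falls and the 5 with the smallest adjusted p in each direction; up to 4 called genes per list with the smallest adjusted p and at least 1 CPM; the 5 largest interactions in each direction; and a set of genes always named (Pdha1, Pdk1 to Pdk4, Havcr1, Lcn2, Krt20, Cdkn1a, Mdm2, Slc34a1, Gstz1, Ppara, Ppargc1a and Hnf4a). Not every gene named by the rule is described. Alternatives were other scalings and filters, DESeq2 1.42.0, limma-voom 3.58.1, a fit of the 6 libraries alone, a replicate block and leaving out each library. Scaling by library totals was added after seeing the data.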

Additional observations from a re-analysis of the deposited data

Results flagged for a closer look

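Each value here is the difference between the effect of dichloroacetate with cisplatin and its effect without cisplatin, tested by the interaction term of edgeR's quasi-likelihood fit, and each was called at an adjusted p below 0.05. The term was called higher for 2327 genes and lower for 1456. The genes listed came from the largest rises, falls and interactions and the genes always named, and only those with a called term were kept. Their signs and calls therefore follow in large part from that choice and are no separate support. Pdk1 (0.35, adjusted p = 0.1) and Pdk3 (-0.04, adjusted p = 0.81), which are always named, were not called by this term and are left out. Injury, early response and p53 genes were lower on the log2 scale: Krt20 -4.33, Fosl1 -3.24, Cxcl10 -2.72, Cd68 -2.58, Cxcl1 -2.5, Atf3 -2.38, Smpdl3b -2.37, Sprr1a -2.09, Egr1 -2.07, Sfn -1.98, Havcr1 -1.43 and Mdm2 -0.74. The kinase gene Pdk4 was lower by the same measure, at -1.47.

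Genes of fuel use and its control were higher: Pdha1 at 0.32, Ppargc1a at 0.66, Gstz1 at 0.7, Pdk2 at 0.87, Ppara at 1.02 and Pck1 at 1.82. The tubule genes Hnf4a and Slc34a1 were at 0.75 and 0.96, Slc13a2 at 1.49, Slc25a21 at 2.68, Kynu at 1.99 and Bhmt at 2.06. Among the other large rises, Gna14 was at 1.23, Cit at 1.25, Gfra1 at 1.49, Thrb at 1.52, Adk at 1.53, Ldlrad3 at 1.69, Snx29 at 1.84 and Ksr2 at 2.47. Groups of 3 are too small for the check of single libraries that stand apart.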

How the results depend on the processing

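Of 183 genes chosen by the naming rule, 181 of them called, 13 changed their call under some alternative and none reversed. Scaling mattered most: library totals gave 2317 genes higher and 5134 lower in combination against cisplatin, 104 lower in dichloroacetate against saline and 2383 lower for the interaction, and 8 genes of the naming rule lost their call (Rpl3, Rpl10, mt-Nd1, Erbb2, mt-Nd2, Erbb3, Acsl1 and Hdc). Of 618 called genes of the lists or the rule 111 lost it, among them Acsl4, Cfb, Dusp1, Gsdme, Hspd1, Il18, Il1a, Psma4 and Sesn1. With 1 library left out, combination against cisplatin gave 2514 to 3742 higher and 2097 to 2746 lower, and the interaction 1538 (without cisplatin replicate 1) to 2607 higher and 1041 to 1606 lower. Dichloroacetate against saline called 26 and 37 genes, 55 and 64 with no filter and 189 and 167 by DESeq2. The replicate numbers gave no sign of pairing between cisplatin and combination mice (correlations of deviations -0.038, 0.008 and -0.015), and the labels state no pairing. With a replicate block the counts were 3788 higher and 2813 lower, 2466 and 1503 for the interaction, and 56 and 61 for dichloroacetate against saline. Other scalings, filters and tools kept combination against cisplatin between 3401 and 3662 higher and 2471 and 3232 lower.

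Of 52 medians of lists and gene span bins, 46 moved by more than the spread between replicates under some alternative. By span, the median at 50 to 100 kb turned from 0.07 to -0.05 with library totals. Up to 5 kb they were -0.03 with DESeq2 size factors and upper-quartile scaling, -0.04 with the 6 libraries alone, -0.14 with library totals and -0.04 to 0 with 1 library left out. At 5 to 20 kb they were -0.06 (upper quartile), -0.07 (6 libraries), -0.17 (totals) and -0.06 to -0.04 (1 left out), and at 20 to 50 kb -0.02 (DESeq2 size factors, upper quartile, 6 libraries), -0.13 (totals) and -0.02 to 0.01. From 50 to 100 kb upward, library totals gave -0.05, 0.1, 0.24 and 0.13, and leaving out 1 library 0.04 to 0.1, 0.18 to 0.29, 0.31 to 0.43 and 0.17 to 0.36. The adipocyte median was -1.46 without combination replicate 1. The cause of these shifts was not tested.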

Other observations

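Klk1b4, a tissue kallikrein gene, was at 38.39 CPM in saline replicate 3, 67.71 CPM in dichloroacetate replicate 1 and 76.15 CPM in combination replicate 1, and at no more than 1.515 CPM in the other 9 libraries. Its fold change in combination against cisplatin was 6.29 on the log2 scale and was not called (adjusted p = 0.102). The gene was chosen after its values were seen, and closely related kallikrein genes can share reads. The treatment labels do not separate the 3 libraries from the rest.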
